A study of Mus musculus with 44 samples.

Results

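The genes described here encode the pore-forming alpha-1 subunits of voltage-gated calcium channels: Cacna1a, Cacna1b, Cacna1c, Cacna1d, Cacna1e, Cacna1g, Cacna1h and Cacna1i. They were found by symbol and mouse Ensembl identifier in both count tables, and all 8 were present among 55487 genes. All 8 passed the filter on low counts in the bulk table and in the sorted table. Cacna1f and Cacna1s, which encode the alpha-1 subunits of retina and skeletal muscle, are given beside them.

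Mice received virus in the nucleus accumbens, a ventral striatal region, that carried RXRa (retinoid X receptor alpha, which partners other nuclear receptors on DNA) or a fluorescent protein alone. Bulk tissue came from males that had received HSV-GFP (4 libraries) or HSV-RXRa-GFP (4 libraries), both herpes simplex virus vectors. Nuclei sorted as D1 or D2, after the dopamine receptors Drd1 and Drd2, came from mice given AAV9-CAG-DIO-EGFP or AAV9-CAG-DIO-EGFP-P2A-RXRa, adeno-associated virus vectors whose insert is inverted until Cre recombinase acts. The sorted groups were D1 females (5 EGFP, 4 RXRa), D1 males (5 and 4), D2 females (4 and 4) and D2 males (5 and 4). All groups shared an intracranial viral infusion and there was no uninfused group among them. The source of Cre, the strain and the age are not given in the sources used here, and neither is whether each library came from its own animal, so the p-values measure the spread between these libraries. A further 1 sorted library carried a title at odds with its vector label and entered no comparison.

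The alpha-1 subunit carries the voltage sensor and the calcium-selective pore, and it decides the class of current. Cav1 channels (Cacna1c, Cacna1d) carry L-type current, which couples activity to gene transcription in striatal projection neurons. Cav2 channels carry P/Q-type (Cacna1a), N-type (Cacna1b) and R-type (Cacna1e) current and trigger transmitter release from axon terminals. Cav3 channels (Cacna1g, Cacna1h, Cacna1i) carry T-type current, which opens near the resting potential.

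The bulk libraries held 21567565 to 29167142 counts each, and the sorted libraries 12211655 to 27757463. The vector RXRa sequence had 0 counts in the 4 bulk GFP libraries, at most 0.877 CPM (counts scaled to a common library size with TMM factors) in the 19 EGFP libraries, and at least 22.1 and 43.4 CPM in the RXRa libraries of the 2 tables. Drd2 was higher in D2 than in D1 nuclei under EGFP by 3.47 on the log2 scale, and Drd1 was lower, a log2 difference of -2.03 (edgeR adjusted p = 1.75e-17 and 2.85e-06). The sorted libraries held a broad background: 1576 protein-coding genes without a count in the bulk table all had counts there, and across those genes the log level followed log gene body length (Pearson's r = 0.75) more than log exon length (0.06). Its median density, in CPM per kb of gene body, is called silent-gene density below and ranged from 0.380 to 0.565.

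The channels ranked differently per unit of length in the 2 kinds of RNA. In bulk poly(A) RNA, Cacna1i had the highest mean level per kb of merged exons at 14.1 ± 2.16 CPM per kb (SD, n = 8), followed by Cacna1b at 12.9 ± 1.33, Cacna1h at 12.8 ± 1.15 and Cacna1e at 12.7 ± 1.81. Neighbours among these 4 differed by less than 1 SD. Cacna1a stood at 10.3 ± 1.24 CPM per kb, and both L-type genes were lower, Cacna1c at 5.15 ± 0.503 and Cacna1d at 3.50 ± 0.296. Cacna1g was lowest at 2.82 ± 1.29 CPM per kb and did not differ from Cacna1d by more than its spread. In sorted nuclei the order on the same scale began with Cacna1c at 33.1 ± 6.35 CPM per kb (n = 35), Cacna1e at 31.8 ± 8.05 and Cacna1d at 27.7 ± 1.86, and the gaps between these neighbours were under 1 SD. Cacna1a (23.0 ± 2.47), Cacna1b (18.5 ± 3.21) and Cacna1i (9.39 ± 1.08) followed, and Cacna1h (3.73 ± 0.578) and Cacna1g (3.46 ± 0.504) were lowest and within 1 SD of each other.

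Per kb of gene body, a scale on which reads from introns count alike for long and short genes, Cacna1e led the sorted table at 1.62 ± 0.411 CPM per kb and was above the next gene in 35 of 35 libraries. Cacna1b (1.16 ± 0.201), Cacna1c (1.15 ± 0.221) and Cacna1a (1.04 ± 0.112) followed without a gap of 1 SD between neighbours. Cacna1d, placed just after Cacna1e per kb of exons, came near the bottom here, above both Cacna1h and Cacna1g, at 0.774 ± 0.0519 CPM per kb. The gene bodies span 59.499 kb (Cacna1h) to 609.179 kb (Cacna1c), and exons make up 16.4% of Cacna1h but 3.48% of Cacna1c. Levels were not compared between the tables, because one holds poly(A) RNA of tissue and the other total RNA of nuclei.

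**Figure D1:**
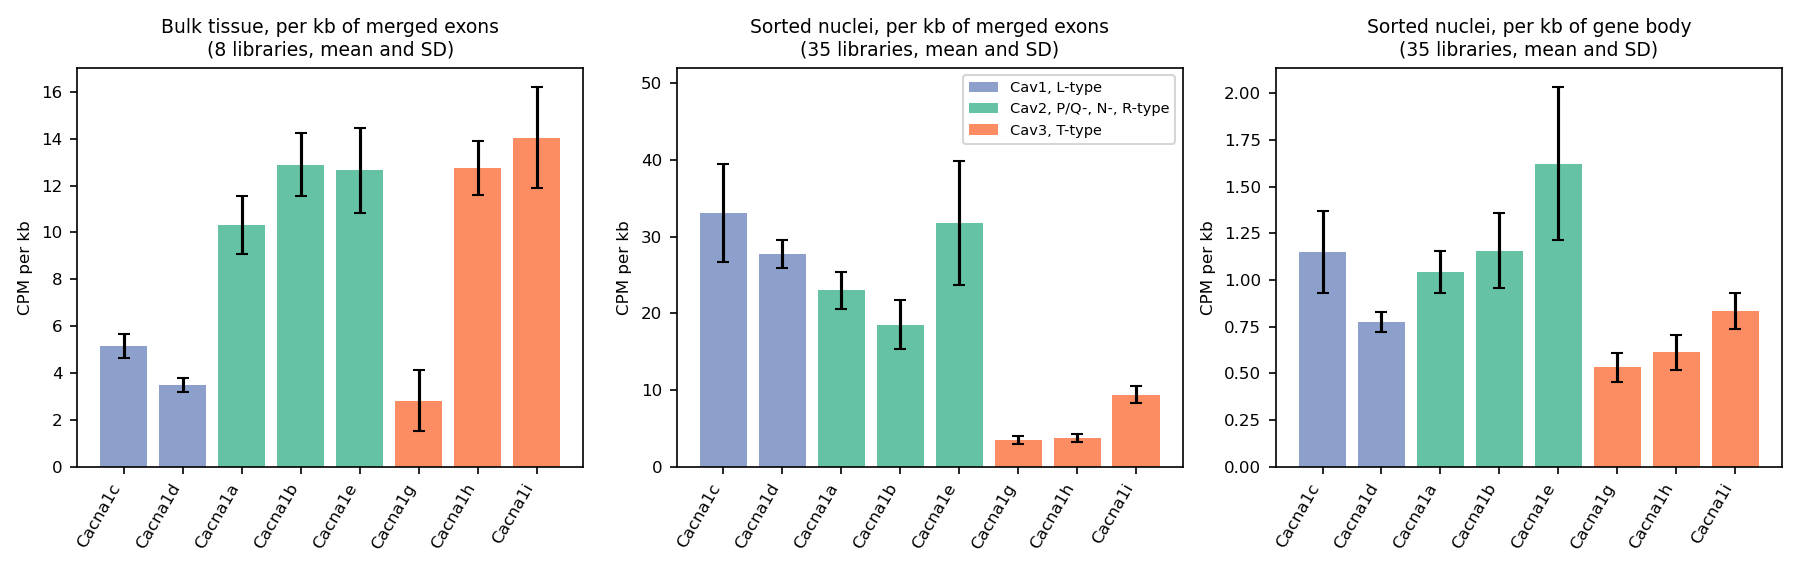
Mean level of each alpha-1 gene in CPM per kb, with SD over libraries, in bulk tissue (8 libraries, per kb of merged exons) and in sorted nuclei (35 libraries, per kb of merged exons and per kb of gene body). Bars are coloured by channel class. Cacna1i, Cacna1b, Cacna1h and Cacna1e stand together at the top in bulk, while Cacna1g and Cacna1h are lowest in nuclei on both length scales.

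Set against the silent-gene density of the same library, Cacna1e stood at 2.04 to 7.67 times that density in the sorted table, Cacna1b at 1.74 to 4.71 times and Cacna1c at 1.66 to 4.49 times. Cacna1a reached 3.31 times, Cacna1d at 1.22 to 2.31 times and Cacna1i at 1.16 to 2.64 times. Cacna1h (0.777 to 2.15 times) and Cacna1g (0.704 to 1.68 times) reached down into the density of genes that had no bulk count. In bulk, by contrast, Cacna1h had 2515 to 3751 counts a library and Cacna1g 458 to 1232. Strand use in counting is not given, so reads of genes on the opposite strand may enter the totals. Cacna1c overlaps Dcp1b, Cacna1d overlaps Dcp1a and Chdh, Cacna1h overlaps Tpsg1 and Cacna1a overlaps an antisense RNA, with sorted means of 37.0, 33.5, 21.2, 2.02 and 3.59 CPM for those neighbours.

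In bulk tissue 1 of the 8 channels was called lower in RXRa libraries, the R-type gene Cacna1e. The background was 3.7% of 18579 genes called and 0.689% called lower (edgeR quasi-likelihood test, Benjamini-Hochberg adjusted p under 0.05). Cacna1e had 352.0, 335.1, 360.6 and 389.6 CPM in the GFP libraries and 277.5, 276.9, 294.1 and 269.4 CPM in the RXRa libraries. All 4 RXRa libraries lay below all 4 GFP libraries, a separation that 13.2% of the genes tested showed in one direction or the other. The log2 fold change was -0.36 ± 0.06 (SE, adjusted p = 0.0159, 95% interval -0.48 to -0.25). The call was lost without GFP replicate 4 (adjusted p = 0.0636), without RXRa replicate 4 (0.057) and with replicate number as a block (0.0759), and the adjusted p ran from 1.01e-06 (DESeq2) to 0.0759 over 16 alternatives.

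The other Cav2 genes and both Cav1 genes were not called in bulk. The N-type gene Cacna1b had 142.9, 126.7, 145.7 and 136.2 CPM with GFP and 128.8, 118.4, 121.0 and 106.1 with RXRa. Its RXRa libraries were mostly the lower ones but the groups overlapped, with a log2 fold change of -0.22 ± 0.07 and an adjusted p of 0.119. For Cacna1a, Cacna1c and Cacna1d the log2 fold changes were -0.03, -0.12 and -0.11, each within 1.5 SE of 0. The interval for Cacna1a, -0.25 to 0.19, leaves room for a difference either way.

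Among the T-type genes, Cacna1h and Cacna1i had bulk log2 fold changes of -0.01 ± 0.09 and -0.13 ± 0.14. Cacna1g had 16.2, 20.5, 45.6 and 19.5 CPM with GFP and 43.9, 19.4, 43.3 and 20.0 with RXRa. GFP replicate 3 and RXRa replicates 1 and 3 thus had about the same high level, and the vectors overlapped fully (log2 fold change 0.31 ± 0.39). The summed level of 6 markers of cortical excitatory neurons was 735.8, 462.8 and 546.7 CPM in those 3 libraries and 7.71 to 101.6 CPM in the other 5. The part of cortical tissue in the Cacna1g values was not tested.

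**Figure D2:**
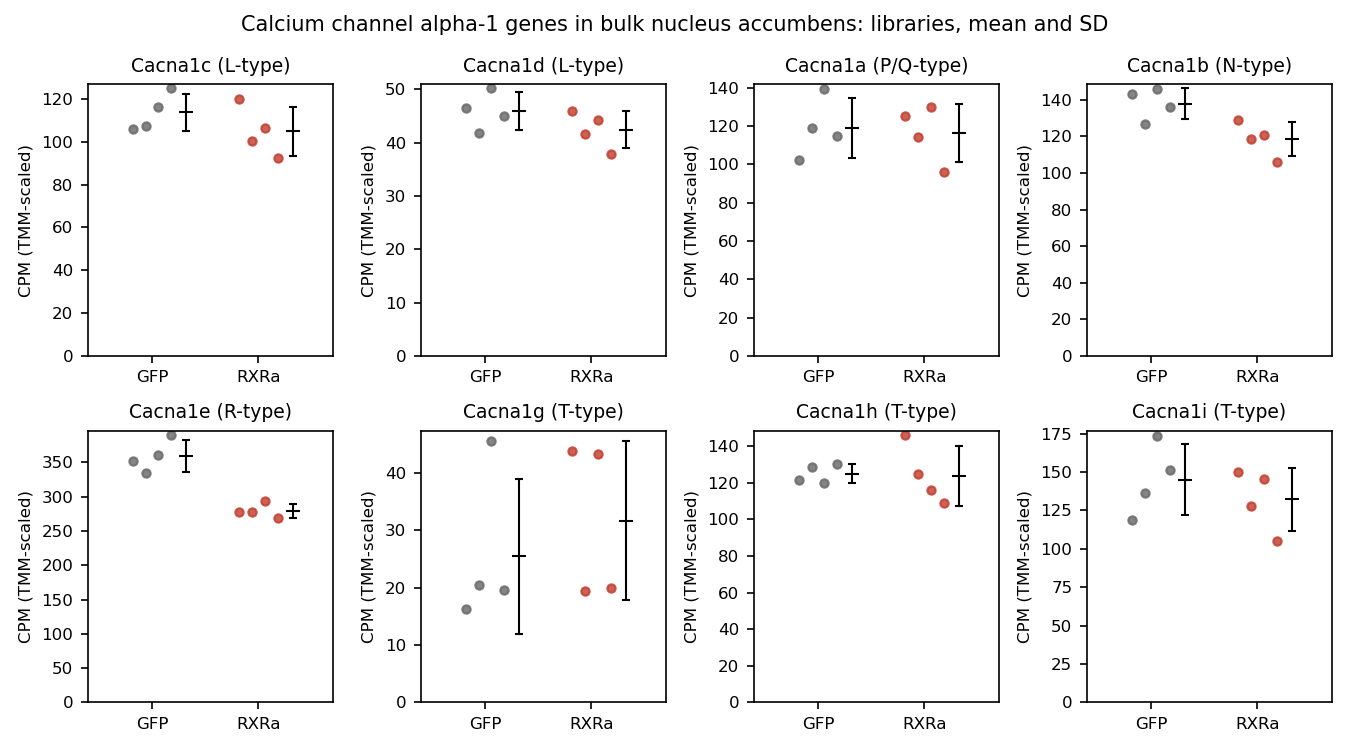
Level of each alpha-1 gene in CPM in the 4 GFP (grey) and 4 RXRa (red) bulk libraries, with mean and SD beside each group. The Cacna1e groups do not overlap (335.1 to 389.6 against 269.4 to 294.1 CPM), and Cacna1g splits into 3 libraries above 43 CPM and 5 below 21 CPM.

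Markers of other cells moved with the vector in bulk. All 6 markers of T and NK cells were called higher with RXRa; their summed level was 13.5 to 18.4 CPM with GFP and 32.2 to 81.9 CPM with RXRa, and none was at 0 in any group. All 7 markers of striatal projection neurons had a log2 fold change below 0 and 2 were called lower, with summed levels of 4078 to 4863 CPM and 3575 to 4263 CPM. The 6 oligodendrocyte markers also all lay below 0 (median -0.31, none called), with summed levels of 4769 to 5343 and 2938 to 5052 CPM. Of 6 markers of D2 neurons 5 lay below 0 and 1 was called lower, and 1 of 6 astrocyte and 1 of 5 endothelial markers were called higher. Of 6 markers of cortical excitatory neurons 5 lay above 0 (median 0.32, none called). Their summed levels were 7.71 to 735.8 CPM with GFP and 72.3 to 546.7 CPM with RXRa. Over all genes tested in bulk 3.7% were called and 0.689% were called lower. In tissue, fewer cells of a type and less RNA per cell cannot be told apart, and the part of cell makeup in the Cacna1e value was not tested.

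In D2 nuclei 5 of the 8 channels were called higher in RXRa libraries: the L-type gene Cacna1c, all 3 Cav2 genes and the T-type gene Cacna1i. None was called without D2 female RXRa replicate 4 or with silent-gene density as a covariate. In this comparison over both sexes 22.1% of 43902 genes were called and 14.9% were called higher. The median log2 fold change was 0.25 over the 8 channels and -0.04 over all genes tested. The 5 called channels rose by 0.20 to 0.53 on the log2 scale, least for Cacna1a and most for Cacna1e.

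Cacna1e, the R-type gene, had 641.6, 708.8, 682.9 and 676.5 CPM in D2 females with EGFP and 936.0, 715.0, 1461.4 and 1041.0 CPM with RXRa. In D2 males it had 646.1, 752.1, 731.6, 760.3 and 814.9 CPM with EGFP and 714.1, 804.1, 1191.0 and 1302.0 CPM with RXRa. The female groups did not overlap, as was so for 6.08% of all genes in D2 females, while in males RXRa replicates 1 and 2 lay within the EGFP range and replicates 3 and 5 far above it. Over both sexes the log2 fold change was 0.53 ± 0.12 (edgeR adjusted p = 0.0111).

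The N-type gene Cacna1b showed the same libraries at the top. It had 153.1, 166.7, 167.7 and 160.5 CPM with EGFP and 203.9, 166.9, 289.5 and 233.8 with RXRa in females. In males it had 160.4, 172.4, 179.8, 163.4 and 190.0 CPM with EGFP and 170.7, 192.7, 230.8 and 260.0 with RXRa. The groups overlapped in both sexes, and the log2 fold change was 0.38 ± 0.09 (adjusted p = 0.0111). Cacna1a, the P/Q-type gene, rose least, by 0.20 ± 0.06 (adjusted p = 0.0254). It was called in 19 of 27 alternatives, with adjusted p from 0.00644 to 0.950. Among the libraries whose removal ended the call, D2 female RXRa replicate 5 left the lowest log2 fold change, 0.13 (adjusted p = 0.111), and the others were D2 female EGFP replicate 5, D2 female RXRa replicate 4 and D2 male RXRa replicates 3 and 5. Its male RXRa libraries (271.0, 281.2, 274.5 and 296.0 CPM) all lay above the EGFP ones (219.3 to 266.3 CPM), in a sex where 2.6% of all genes had groups apart, whereas its female groups overlapped (220.3 to 311.6 against 213.6 to 255.9 CPM). No channel had groups apart in the same direction in both sexes, which 0.18% of all genes had.

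The L-type gene Cacna1c had 615.6, 572.1, 620.4 and 633.3 CPM with EGFP and 693.3, 596.5, 1055.2 and 1009.1 with RXRa in D2 females. In males it had 628.8, 612.9, 658.3, 636.6 and 744.8 CPM with EGFP and 678.3, 701.7, 976.9 and 941.8 with RXRa. Female RXRa replicates 4 and 5 and male RXRa replicates 3 and 5 were far above the rest, and the groups overlapped in each sex (log2 fold change 0.39 ± 0.10, adjusted p = 0.0123). The other L-type gene, Cacna1d, which opens at more negative voltages, changed little: its log2 fold change was 0.12 ± 0.05 (adjusted p = 0.0788), and its 17 D2 libraries lay between 301.7 and 403.4 CPM.

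Of the T-type genes 1 was called in D2 nuclei. Cacna1i, abundant in inhibitory neurons of the forebrain, rose by 0.25 ± 0.07 (adjusted p = 0.0137), from 72.7 to 98.4 CPM in the 9 EGFP libraries to 77.9 to 116.0 CPM in the 8 RXRa libraries. Cacna1h had the same log2 fold change, 0.25, but a larger error of 0.10 and an adjusted p of 0.0551; it was called with DESeq2 (0.0372) and RLE factors (0.0423), within a range of 0.0149 to 0.957 over 27 alternatives. Differences between these genes were not tested. Cacna1g had a log2 fold change of -0.06 ± 0.08 (adjusted p = 0.657), with 25.5 to 38.8 CPM under EGFP and 24.6 to 39.9 CPM under RXRa. Cacna1h and Cacna1g were those whose level reached down to the silent-gene density.

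**Figure D3:**
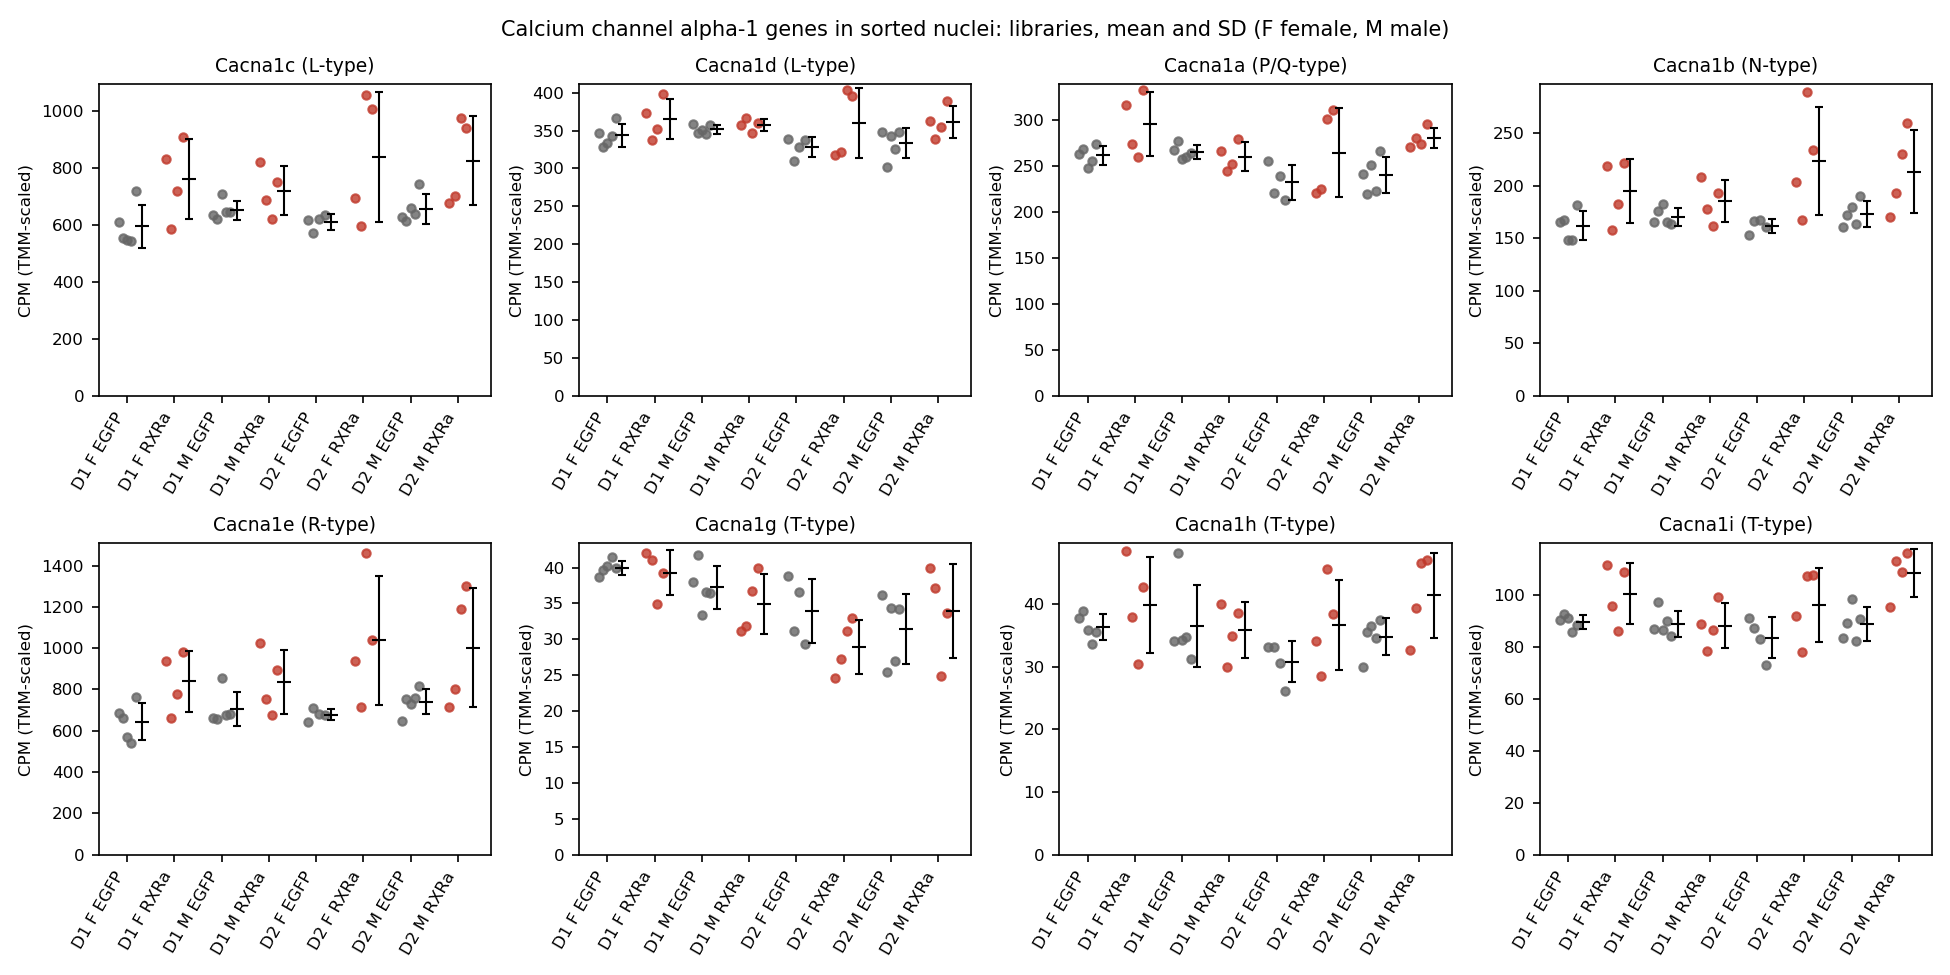
Level of each alpha-1 gene in CPM in the 35 sorted libraries by population, sex and vector (EGFP grey, RXRa red), with mean and SD beside each group. In D2, RXRa libraries spread upward for Cacna1c, Cacna1b and Cacna1e (Cacna1e to 1461.4 CPM), while Cacna1g stays between 24.6 and 42.1 CPM in all groups.

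These rises rested on few libraries. Without D2 female RXRa replicate 4, edgeR called no channel and no gene in the D2 comparison of vectors (12160 genes had an unadjusted p under 0.05). The log2 fold change was then 0.40 for Cacna1e (adjusted p = 0.0569) and 0.29 for Cacna1b (0.0569). Without D2 male RXRa replicate 5, 3 channels were called. With library totals in place of TMM scaling 3 were called as well, Cacna1b at 0.20, Cacna1c at 0.21 and Cacna1e at 0.33, and the log2 fold change of Cacna1a was 0.03. Over 27 alternatives the adjusted p of Cacna1e ran from 0.000957 to 0.915 and its log2 fold change from 0.18 to 0.60. Cacna1e, Cacna1b and Cacna1c were each called in 25 of the 27 and Cacna1i in 23, most of these fits leaving out 1 library.

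The background density moved with the vector in the same nuclei. It was 0.532 ± 0.0242 in D2 females with EGFP and 0.463 ± 0.0653 with RXRa, and 0.529 ± 0.0284 and 0.458 ± 0.0505 in D2 males. Among female RXRa libraries, replicate 4 had the lowest density, 0.386, and the highest Cacna1e, and replicate 3 had the highest density, 0.537, and the lowest Cacna1e. In male RXRa libraries the order was not as strict: replicate 5 had the lowest density (0.399) and the highest Cacna1e, but replicate 2 had a density of 0.438 with 804.1 CPM. Over the 16 RXRa libraries of both populations, Pearson's r of log2 level with log2 density was -0.73 for Cacna1e and -0.74 for Cacna1c. Over the 19 EGFP libraries it was -0.13 and -0.17. Other channels under EGFP had -0.75 (Cacna1a), -0.70 (Cacna1h), -0.62 (Cacna1i), -0.60 (Cacna1g), -0.38 (Cacna1b) and -0.36 (Cacna1d). Under RXRa the same channels had, in that order, -0.81, -0.84, -0.84, -0.27, -0.81 and -0.67. With log2 density as a covariate none of the 8 channels was called by edgeR and no gene was (2061 genes had an unadjusted p under 0.05; adjusted p = 0.915 for Cacna1e). The log2 fold changes then were 0.18 for Cacna1e, 0.13 for Cacna1c, 0.11 for Cacna1b, 0.06 for Cacna1i, 0.03 for Cacna1a and -0.04 for Cacna1h. Density and vector moved together, so their parts cannot be told apart fully.

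**Figure D4:**
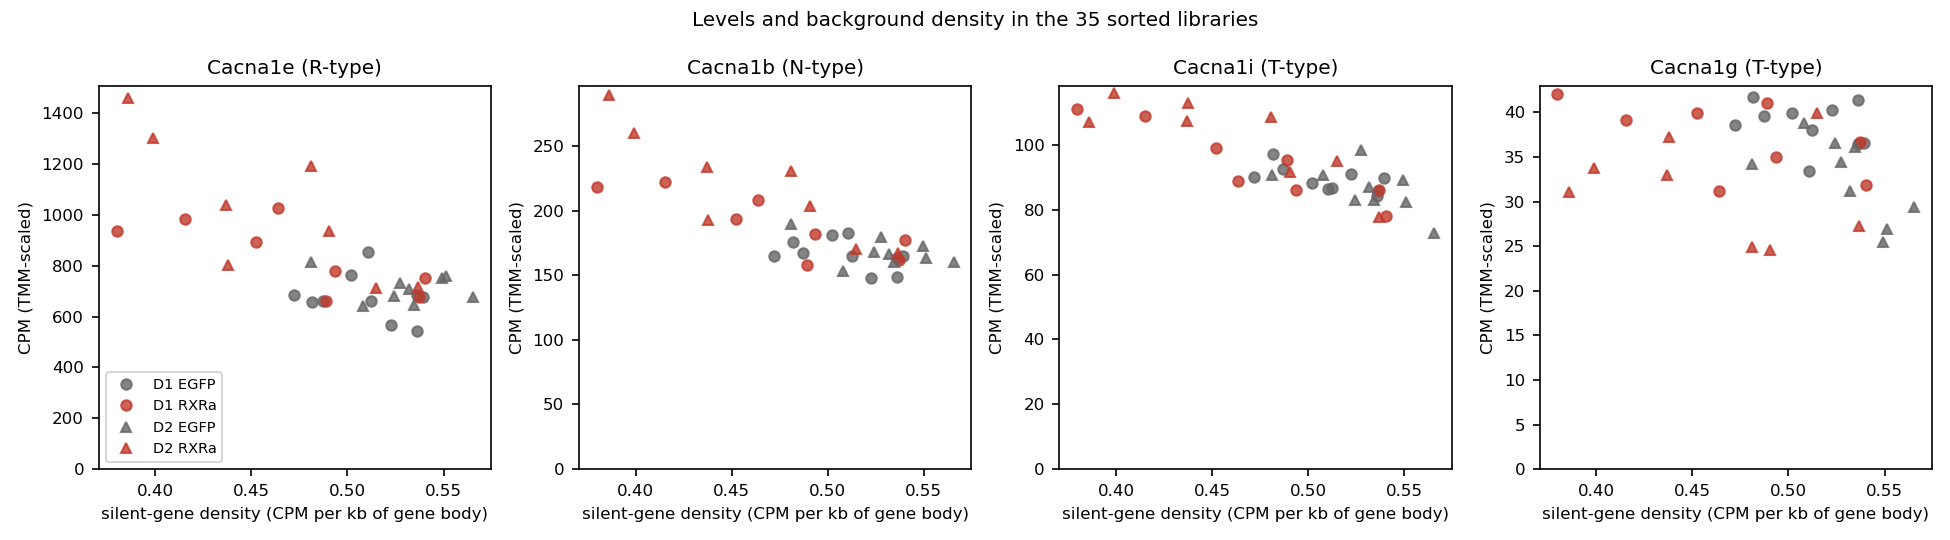
Level in CPM against silent-gene density (CPM per kb of gene body) for Cacna1e, Cacna1b, Cacna1i and Cacna1g in 35 sorted libraries; circles are D1, triangles D2, grey EGFP, red RXRa. The libraries with the lowest density (0.380 to 0.399) are RXRa libraries with Cacna1e between 935.8 and 1461.4 CPM, and Cacna1g between 31.1 and 42.1 CPM.

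Markers moved too. Of 7 markers of striatal projection neurons, 6 were called higher in D2 with RXRa, and their summed level was 2148 to 2297 CPM (EGFP) and 2202 to 4782 CPM (RXRa) in females and 1932 to 2880 and 2144 to 4689 CPM in males. Drd2 rose by 0.75 and Drd1 by 0.89 (adjusted p = 0.0111 and 0.0173). Of 6 astrocyte markers 2 were called lower and none higher, and none of 9 interneuron markers was called. Set against silent-gene density, the median of the astrocyte markers over the sorted libraries was 0.843 (Gfap) to 1.86 (Aldoc) times. The interneuron markers had 0.915 (Vip) to 1.76 (Cck) times, apart from Sst at 7.85. Markers this near the background cannot tell cell makeup from background. Over all genes tested in this comparison 22.1% were called and 14.9% were called higher, with 3135 of 43902 called lower. The part of background density and of nuclear purity in the rises of the channels was not tested beyond the covariate fit.

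Within a sex no gene of the table was called in D2, so the share called was 0% in females and 0% in males (11080 and 8656 genes had an unadjusted p under 0.05; DESeq2 called 0 and 12, limma voom 0 and 1). The log2 fold changes of the 5 channels were alike in size: 0.62 in females and 0.44 in males for Cacna1e, 0.47 and 0.30 for Cacna1b, 0.46 and 0.33 for Cacna1c, 0.19 and 0.22 for Cacna1a, and 0.20 and 0.29 for Cacna1i. Without D2 female RXRa replicate 3, the library with the least Cacna1e among them, 4 channels were called in females, and without D2 male RXRa replicate 1, 3 were called in males. The difference between the sexes in the D2 effect was 0.18 ± 0.24 for Cacna1e and lay within 1 SE of 0 for all 5. It was called for no channel and no gene (0%; 1324 genes had an unadjusted p under 0.05, and DESeq2 and limma voom called 0). Cacna1g came nearest among the 8, at -0.34 ± 0.17, with -0.23 in females and 0.11 in males.

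In D1 nuclei none of the channels was called, and none of 43902 genes was (0%; 3518 genes had an unadjusted p under 0.05; DESeq2 and limma voom called 0). The log2 fold changes were 0.31 ± 0.12 for Cacna1e, 0.25 ± 0.10 for Cacna1c and 0.19 ± 0.08 for Cacna1b, with adjusted p-values of 0.581, 0.581 and 0.588. In D1 females Cacna1e had 686.0, 663.1, 568.6, 541.4 and 762.5 CPM with EGFP and 935.8, 662.0, 779.7 and 982.9 CPM with RXRa. In D1 males it had 661.9, 657.9, 854.6, 675.9 and 683.2 CPM with EGFP and 1025.6, 751.8, 675.2 and 893.6 CPM with RXRa. RXRa replicates 1 and 5 were the high ones in both sexes, and the groups overlapped. The remaining 5 channels lay between -0.06 and 0.08. No channel had groups apart in both sexes (0.041% of all genes did), and none was called within a sex (0% in females and 0% in males; 2757 and 1326 genes had an unadjusted p under 0.05; DESeq2 called 4 and 0, limma voom 0 and 0).

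The vector effect was not shown to differ between D2 and D1. The differences, D2 minus D1, ran from 0.00 for Cacna1g to 0.21 ± 0.17 for Cacna1e, with a lowest adjusted p of 0.602 among the 8 (Cacna1i, 0.17 ± 0.09). No gene of the table was called for this difference (0%; 3609 had an unadjusted p under 0.05; DESeq2 and limma voom called 0). The interval for Cacna1e, -0.11 to 0.54, holds both 0 and a difference as large as the D2 effect. For the difference between the sexes in D1 no channel was called either (0%; 912 genes had an unadjusted p under 0.05; DESeq2 called 2 and limma voom 0).

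**Figure D5:**
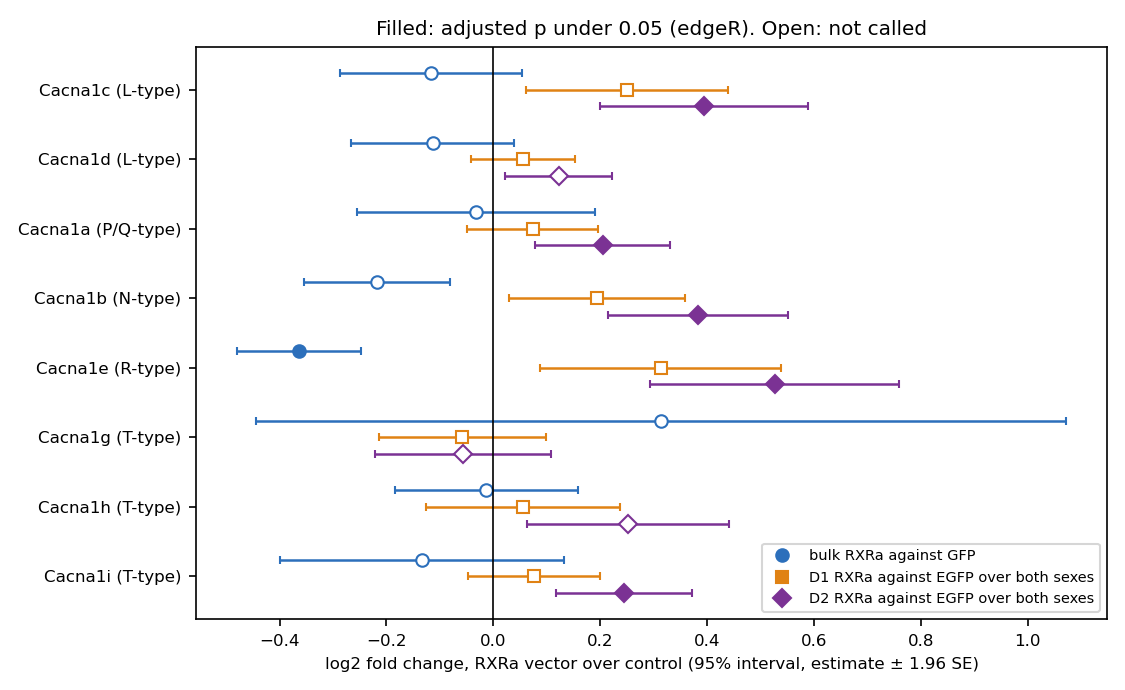
Log2 fold change of each alpha-1 gene, RXRa vector over control, with 95% interval in bulk tissue, D1 nuclei and D2 nuclei; filled symbols have an edgeR adjusted p under 0.05. Cacna1e is the filled symbol in bulk, at -0.36, and in D2 it is highest, at 0.53; D1 has no filled symbol.

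Bulk and sorted effects are listed side by side for each channel, and the tables share no library. The virus differed (HSV against Cre-dependent AAV9), and so did the animals (males against both sexes). The RNA differed too, poly(A) RNA of tissue against total RNA of nuclei. Cacna1e was at -0.36 in bulk, 0.31 in D1 and 0.53 in D2. Cacna1b was at -0.22, 0.19 and 0.38, and Cacna1c at -0.12, 0.25 and 0.39. Cacna1g was at 0.31 in bulk and -0.06 in both sorted populations. The sign in bulk was the opposite of that in D2 for each of the 8, but with library totals it turned for Cacna1a (0.00) and Cacna1h (0.02) in bulk and for Cacna1d (-0.05) in D2. In bulk Cacna1a, Cacna1g, Cacna1h and Cacna1i lay within 1 SE of 0, and so did Cacna1g in D2, so those signs are not settled. The difference between the tables was not tested.

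Between the sorted populations the channels differed little. Under EGFP 0.121% of genes were called between D2 and D1 and no channel was; the log2 differences, D2 over D1, ran from -0.24 to 0.07. Under RXRa 8.36% were called and again no channel was, with log2 differences from -0.24 to 0.28. Cacna1g, the T-type gene, was lowest both times, at -0.24 ± 0.08 (adjusted p = 0.281) and -0.24 ± 0.09 (adjusted p = 0.0708). It had 33.5 to 41.7 CPM in the 10 D1 and 25.5 to 38.8 CPM in the 9 D2 libraries with EGFP, ranges that overlap. Under RXRa its adjusted p was 0.0183 without D2 male RXRa replicate 1, 0.0304 without D1 male RXRa replicate 1, 0.0296 without D2 female RXRa replicate 5 and 0.0434 with density as a covariate, within a range of 0.0183 to 0.213 over 26 alternatives. Cacna1g and Cacna1s both averaged 1.09 times the silent-gene density. With EGFP, Cacna1s had means of 39.0 and 39.3 CPM in D1 females and males, and 35.6 and 34.1 CPM in D2. The density itself was 0.504 and 0.516 in those D1 groups and 0.532 and 0.529 in D2. The part of background in the Cacna1g difference was not tested.

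Between the sexes under EGFP 4.43% of genes were called and none of the 8 channels, whose log2 differences, female over male, ran from -0.13 to 0.11. Cacna1f, the X-linked retinal L-type gene outside the 8, was higher in females by 0.94 ± 0.07 (adjusted p = 6.74e-13), at 21.1 ± 0.544 CPM (n = 5) in D1 females and 10.96 ± 0.757 CPM (n = 5) in D1 males with EGFP. In D1 nuclei with EGFP it stood at 1.33 to 1.60 times the silent-gene density in females and at 0.712 to 0.799 times in males, and it had 11 to 17 counts in a bulk library. The part of background in this difference was not tested. Cacna1s, the skeletal muscle gene, lay at 0.758 to 1.67 times the density.

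Among the channels' partners, the beta subunits bind the alpha-1 subunit of Cav1 and Cav2 channels inside the cell and bring it to the membrane. They rose in D2 in 4 of 4 genes, in a comparison where 14.9% of all genes were called higher. Their median log2 fold change was 0.50 against -0.04 over all genes. Cacnb2 rose by 0.64 ± 0.16 (adjusted p = 0.0118), Cacnb1 by 0.53 ± 0.14 (0.0140) and Cacnb4 by 0.48 ± 0.12 (0.0127). The alpha-2-delta subunits, extracellular proteins that raise surface expression and bind gabapentin in some cases, rose in 2 of 4 genes, Cacna2d3 by 0.60 ± 0.15 and Cacna2d2 by 0.30 ± 0.07. Of the gamma family, most of which traffic AMPA receptors, 3 of 8 rose: Cacng8 by 0.49, Cacng3 by 0.43 and Cacng4 by 0.26.

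Genes for calcium release and clearance rose in 12 of 20 cases and fell in 1, Itpr2 (log2 fold change -0.15, adjusted p = 0.0413, named after its values were seen), in D2 nuclei. The largest rises among them were those of Atp2b1, a plasma membrane calcium pump (0.62), Atp2a2, the pump of the endoplasmic reticulum (0.60), and Slc8a2, a sodium-calcium exchanger (0.53). Channel partners and calcium effectors, such as release-site proteins and calcineurin, rose in 15 of 18 cases and fell in none. Among them Calm3 rose by 0.99 ± 0.27 and Calm2 by 0.76 ± 0.25 (adjusted p = 0.0144 and 0.0320). All of these counts carry the same limits as the D2 rises of the channels, and without D2 female RXRa replicate 4 edgeR called no gene in this comparison. Of all genes in this comparison 14.9% were called higher and 22.1% were called.

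None of these partner lists had a called gene in bulk, where 3.7% of all genes were called, or in D1 nuclei, where 0% were, so the D1 count says nothing of these lists. In bulk their medians were -0.08 for beta, -0.12 for alpha-2-delta, -0.06 for gamma, -0.14 for release and clearance and -0.12 for partners and effectors, against -0.02 over all genes. In D1 they were 0.23, 0.09, 0.04, 0.12 and 0.23, against -0.01. Under RXRa, D2 nuclei were higher than D1 nuclei in Cacnb1 (0.54), Cacna2d2 (0.27), Atp2a2 (0.70), Ryr2 (0.21) and 5 partners, Calm3 (1.00) and Calm2 (0.88) among them. In this comparison 8.36% of all genes were called, and the 3671 calls became 34 with the groups compared alone and 118 without D2 female RXRa replicate 4.

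Promoter sequences of channels called higher in D2 are shown as a description. Whether RXRa acts on these genes directly was not tested. RefSeq windows were at hand for 5 of the 8 genes, Cacna1b, Cacna1c, Cacna1d, Cacna1e and Cacna1i. Windows were printed for genes called in D2 with a RefSeq start near the GENCODE gene start. The distance was 0 bases for Cacna1b and Cacna1i and 9 for Cacna1c. The Cacna1e start lies 158581 bases inside the GENCODE gene. Each run is the 250 bases before the start, 5′ to 3′ on the gene's strand (RefSeq, GRCm38.p6), with GGGTCA and AGGTCA half-sites of nuclear receptors and GGGCGG boxes on either strand in capitals. They lie at chr2:24763153-24763402 (minus strand), chr6:119196410-119196659 (minus strand) and chr15:80286988-80287237 (plus strand).
Cacna1b: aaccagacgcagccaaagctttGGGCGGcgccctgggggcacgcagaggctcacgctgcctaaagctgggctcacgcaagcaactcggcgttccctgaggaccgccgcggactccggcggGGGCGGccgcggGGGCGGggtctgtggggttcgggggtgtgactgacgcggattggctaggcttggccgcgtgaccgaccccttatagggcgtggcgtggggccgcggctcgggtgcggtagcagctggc
Cacna1c: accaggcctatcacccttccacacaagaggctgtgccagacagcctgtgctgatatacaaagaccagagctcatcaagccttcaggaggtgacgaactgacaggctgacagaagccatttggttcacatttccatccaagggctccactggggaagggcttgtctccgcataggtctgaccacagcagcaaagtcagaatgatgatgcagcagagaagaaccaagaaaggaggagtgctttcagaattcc
Cacna1i: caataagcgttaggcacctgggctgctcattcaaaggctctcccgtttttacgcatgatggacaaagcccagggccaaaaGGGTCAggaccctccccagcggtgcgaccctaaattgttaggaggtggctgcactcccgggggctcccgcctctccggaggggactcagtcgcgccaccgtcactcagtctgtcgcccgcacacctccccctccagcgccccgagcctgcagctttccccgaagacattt
The Cacna1i window held 1 GGGTCA, 170 bases before the start, and no AGGTCA. The Cacna1b window held 3 GGGCGG boxes and no half-site, and the Cacna1c window shown held neither. Further Cacna1c starts in RefSeq, not printed, lie 87923 and 438444 bases inside the GENCODE gene. The window of the first had 6 GGGCGG boxes and that of the other had none, and neither held a half-site. Of 32851 windows of this length, 11.6% held GGGTCA, 14.0% AGGTCA and 32.7% GGGCGG. Direct repeats of AGGTCA with 1 to 5 bases between them were in none of the 8 windows of these genes and in 0.0061% to 0.0335% of all windows. These matches describe letters in a window and say nothing of binding.

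Across the 35 sorted libraries Cacna1b, Cacna1c and Cacna1e varied together. Pearson's r of log2(CPM + 1) was 0.97 for Cacna1b with Cacna1e, 0.95 for Cacna1b with Cacna1c and 0.94 for Cacna1c with Cacna1e. After each group's mean was taken away these were 0.96, 0.91 and 0.89, so the likeness is also one between libraries of a group. Cacna1h and Cacna1i had 0.86. Cacna1g was negative with Cacna1b, Cacna1c and Cacna1e, at -0.27, -0.22 and -0.40, and at -0.05, -0.03 and -0.24 after group means. These values describe libraries that share depth, background and scaling. The relative spread over libraries was widest for Cacna1e (25.3% coefficient of variation) and narrowest for Cacna1d (6.7%).

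Among 14687 genes with a mean of at least 10 CPM, the most alike to Cacna1e were Mrtfb (r = 0.99) and Mbnl2 (0.99), to Cacna1b Fry (0.98) and Rbfox2 (0.98), and to Cacna1c Grin2a (0.98) and Dpp6 (0.98). For Cacna1e 17.6% of those genes had an r over 0.8, so a high value is common there. The nearest gene changed for 4 of the 8 channels after group means were taken away and for 6 of 8 with Spearman's rho. The nearest genes of Cacna1a were Cmip and Ergic1 (both 0.95), of Cacna1d Spock1 (0.95) and Agap1 (0.92), of Cacna1g Sdk2 (0.95) and Prdm16 (0.94), of Cacna1h Myo18a and Zfp523 (both 0.90) and of Cacna1i Ahdc1 and Mgat5b (both 0.93). Less than 2% of genes passed 0.8 for Cacna1a, Cacna1d and Cacna1h.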

How the data were processed

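The authors deposited 2 tables of counts per gene, bulk and sorted; per the submitters' processing notes they used FastQC, Trimmomatic, HISAT2, Picard, featureCounts of Subread and GRCm38, and versions, strand setting and intron use are not given in the sources used here. Per the labels' protocols, bulk libraries are poly(A) RNA and sorted ones ribosomal-depleted total RNA. Of 55487 identifiers 55394 matched GENCODE M21. From the counts, edgeR 4.0.16 (R 4.3.3) quasi-likelihood tests with TMM scaling were fitted per table over all assigned groups after filterByExpr, with Benjamini-Hochberg adjustment at 0.05. Alternatives were RLE factors, library totals, other filters, DESeq2 1.42.0, limma 3.58.1 voom, a robust fit, a replicate block, a density covariate, the groups compared alone, and leaving out each library. Tests were tested on simulated data: 98% of 2-fold and 78% of 1.5-fold changes were recovered in bulk (18579 genes), and 100% and 92% in D2 (43902 genes). The simulation drew each gene independently, with no factor shared across the genes of a library and no change under 1.5-fold. Its recovery therefore cannot vouch for the D2 calls or for changes under 1.5-fold. Replicates differed beyond sampling noise (chi-square per degree of freedom at least 1.79 in 72 pairs). Genes named outside the 8 were at most the 3 called genes of each list with the largest change and a mean of at least 1 CPM, and the 2 genes most alike by Pearson's r. Drd1 and Drd2 served as label checks, and Itpr2 and Cacna1s were named after their values were seen; 1 gene that this rule names is not reported here. The 8 genes, the lists and the density measure were chosen with earlier results of these data known. Sequence positions are those of GRCm38.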

Additional observations from a re-analysis of the deposited data

Results flagged for a closer look

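Of 80 groups of 4 or 5 libraries checked for a library far from the rest, 4 held one; chance flags about 1 in 20 groups. Cacna1g stood at 45.6 CPM in bulk GFP replicate 3, with 20.5 CPM the next value in its group. In D1 males with EGFP, replicate 3 stood above its group for Cacna1c, at 709.2 CPM against 645.3 for the next, and for Cacna1e, at 854.6 CPM against 683.2. Cacna1h stood at 48.1 CPM in replicate 2 of the same group, against 34.7 for the next.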

How the results depend on the processing

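The genes called in bulk numbered 687, and 1596 with DESeq2. With replicate number as a block they were 0, and so were the channels; same-numbered bulk libraries deviated together in 2 of 4 pairs (r from -0.67 to 0.66), so the numbers are not taken to pair the libraries, nor in the sorted groups. The block gave 1 gene in D1 females and 236 between D2 and D1 under RXRa (3671 without it), and in D2 it called Cacna1d (adjusted p = 0.0346). In D2, 9683 genes became 0 with density as a covariate and 2547 with the groups compared alone, and 5 channels became 3 with library totals and 0 with the covariate. In D1 females 0 genes became 4 with DESeq2 and 1 with the groups alone, in D2 males 12 with DESeq2 and 1 with voom, and for the sex difference in D1 2 with DESeq2. Between D2 and D1, 53 genes under EGFP became 134 with the groups alone, and 3671 under RXRa became 1114 with library totals, 864 with voom and 34 with the groups alone; 0 channels became 1 with the covariate. Between the sexes 1947 became 1024 at a mean of at least 1 CPM. With each library left out in turn, the genes called ran from 9 to 1016 in bulk (channels 0 to 1), 0 to 14766 in D2 (channels 0 to 7), 0 to 6699 in D2 females (0 to 4), 0 to 5986 in D2 males (0 to 3), 0 to 4 in D1 females, 0 to 3 for the sex difference in D1, 36 to 61 between D2 and D1 under EGFP, 118 to 9886 under RXRa (channels 0 to 3) and 1888 to 1949 between the sexes, and were 0 in D1, in D1 males and for the remaining differences. Signs turned with library totals for Cacna1a in bulk (0.00408), D1 (-0.000423) and D2 females (-0.0093), Cacna1h in bulk (0.022) and D1 (-0.017), and Cacna1d in D1 (-0.018) and D2 (-0.046). They turned with the covariate in D1 for Cacna1a (-0.028), Cacna1i (-0.032) and Cacna1h (-0.11), and in D2 for Cacna1h (-0.038). With a library left out, bulk values ran from -0.0997 to 0.0519 for Cacna1a and from -0.0962 to 0.0468 for Cacna1h. The causes were not tested.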

Other observations

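The sorted library whose title and vector label conflicted had, in CPM of the library total, 276.5 for Cacna1a, 185.7 for Cacna1b, 663.6 for Cacna1c, 355.1 for Cacna1d, 775.2 for Cacna1e, 40.7 for Cacna1g, 42.2 for Cacna1h and 100.8 for Cacna1i. Each value lay within the range of the 35 assigned libraries on that scale. The vector RXRa sequence had 2941 counts in it, 188.2 CPM of the library total; groups were taken from labels and not from such values, so it stayed without a group.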
